A study of Mus musculus with 4 samples.

Results

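The 7 genes described here belong to neuregulin signalling and to the transcriptional control of Schwann cells: the growth factor gene Nrg1, the receptor genes Erbb2 and Erbb3, and the regulators Sox10, Egr2, Pou3f1 and Nab2. They were taken by name from the deposited table of 48431 genes, and all 7 were found, each under 1 identifier. The RNA came from dorsal root ganglia (DRG) of male wild-type mice with the strain label SW, which had been given methylglyoxal (MGO), a reactive dicarbonyl formed in glycolysis, intraperitoneally at 2 mg/kg over 6 days. All 4 libraries belong to this 1 group, and no vehicle group was analysed here, so no value below measures a response to MGO. Whether each library is a separate animal is not stated in the labels.

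Neuregulin-1 is made by sensory neurons and displayed on their axons, where it binds a receptor on Schwann cells built from ErbB3, which holds the ligand but is a weak kinase, and ErbB2, which is an active kinase but binds no ligand. The signal controls the survival and migration of Schwann cell precursors and, later, myelin thickness. Inside the cell Sox10 defines the lineage, Pou3f1 (Oct6) marks the step before myelination, Egr2 (Krox20) drives the myelin genes, and Nab2 binds Egr proteins and changes their effect on transcription. Sox10 and Erbb3 are also active in satellite glia, the cells that wrap the neuron bodies. In bulk tissue, fewer cells of a type and less RNA per cell cannot be told apart.

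Levels are given in CPM, read counts per library scaled to a common sum, without a correction for length. The library kit reads transcripts near their 3′ ends, so CPM is the scale on which levels of different genes are set side by side, and CPM per kilobase of exonic length is given once as the other scale. If the smallest step between values is 1 read, replicates 1 to 4 hold 10138772, 8975726, 5576819 and 7223786 reads. Replicates 1 and 2 stood apart from replicates 3 and 4 across the table: 3 ribosomal RNA entries were at 0 in the first pair and held 8.26% and 10.8% of the reads in replicates 3 and 4. These pairs are not groups of the study, and the origin of the split is not known, so each gene is given in all 4 libraries and the pairs are compared without a test. The tissue label was met by its markers, with all 6 neuronal markers (9396 to 11004 CPM summed) and all 7 markers of myelinating Schwann cells (15321 to 28985 CPM summed) at 1 CPM or more in every library.

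All 7 genes reached 1 CPM in all 4 libraries, against 26.5% of the listed genes. Their means ran from 12.3 to 45.7 CPM, and the median over genes detected in every library was 19.1 CPM. They were therefore in the middle of the detected range, from percentile 38.3 for Egr2 to percentile 71.1 for Erbb3. Every value of the 7 genes was within 0.05 of a whole number of the read steps of its library, from 54 reads for Egr2 in replicate 3 to 597 reads for Sox10 in replicate 2. Counting error alone gives exact Poisson 95% intervals of 7.27 to 12.6 CPM for the first of these and 61.3 to 72.1 CPM for the second.

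**Figure D1:**
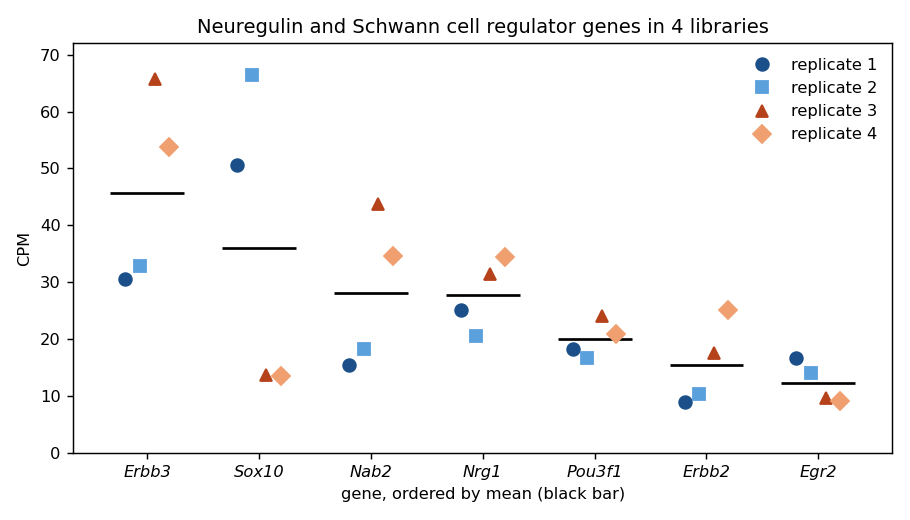
CPM of the 7 genes in each library (points, by replicate) with the mean of 4 libraries (black bars), ordered by mean. Sox10 and Egr2 lie higher in replicates 1 and 2, and the other 5 genes lie higher in replicates 3 and 4.

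Nrg1 (ENSMUSG00000062991.7, chromosome 8, 31814551 to 32884029, minus strand, GRCm38) encodes the ligand. It had 25.1, 20.5, 31.4 and 34.3 CPM in replicates 1 to 4, a mean of 27.8 ± 6.23 CPM (SD, n = 4). The levels of the library pairs did not overlap, but they were close, at means of 22.8 CPM in replicates 1 and 2 and 32.9 CPM in replicates 3 and 4. GENCODE lists 12 protein-coding transcripts of Nrg1 with 10 different 3′ ends, so the membrane-bound and shed forms of neuregulin-1 are summed in these values. Its exons overlap 482 bases of the noncoding gene Gm26578 on the opposite strand, which stayed below 1 CPM in every library.

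Among the 11 ligand genes of the epidermal growth factor family, 4 were at 1 CPM or more in every library: Hbegf, Nrg1, Tgfa and Nrg3. Hbegf, a ligand of Egfr and Erbb4, had the highest mean at 38.1 CPM. Nrg1 lay below it in 3 of 4 libraries (mean log2 difference of Nrg1 over Hbegf -0.44, SD 0.64, exact sign-flip p = 0.375). Nrg3, a neuronal ligand of Erbb4, had 7.79, 6.35, 20.8 and 16.2 CPM. Nrg1 was above Nrg3 in 4 of 4 libraries, with ratios of 3.22, 3.23, 1.51 and 2.12. The lowest ligand gene was Epgn, at 0 in 3 of 4 libraries. Nrg2 and Nrg4 had means of 1.28 and 1.39 CPM. Of the 4 ligand genes averaging at least 10 CPM, 1 (Nrg3) was at least 2-fold higher in replicates 3 and 4, and their median log2 difference of replicates 1 and 2 over replicates 3 and 4 was -0.61, against 0.19 for all genes. The exact sign-flip test on 4 libraries gives a two-sided p of 0.13 (rounded up) at the smallest, so no order between 2 genes can pass 0.05 in it.

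Erbb3 (ENSMUSG00000018166.8, chromosome 10, 128567523 to 128589652, minus strand) had the highest mean of the 7 genes. It was at 30.5, 32.8, 65.8 and 53.7 CPM, a mean of 45.7 ± 17.0 CPM (SD, n = 4). The pairs did not overlap, and replicates 3 and 4 were 1.89-fold higher than replicates 1 and 2. Erbb2 (ENSMUSG00000062312.5, chromosome 11, 98412470 to 98437716, plus strand) was at 8.98, 10.2, 17.6 and 25.1 CPM, a mean of 15.5 ± 7.43 CPM (SD, n = 4). Both receptor genes were lower in replicates 1 and 2 than in replicates 3 and 4, and Erbb2 was 2.22-fold higher in the second pair.

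Within a library, Erbb3 exceeded Erbb2 by ratios of 3.40, 3.20, 3.74 and 2.14. The mean log2 difference was 1.54 (SD 0.33, 2.91-fold), higher in 4 of 4 libraries, at the smallest p the exact sign-flip test allows (0.13). The difference was larger than its SD and kept its direction in both library pairs. Per kilobase of exonic length, the setting that applies if reads came from whole transcripts, it was 1.12. Egfr, the receptor of Hbegf and Tgfa, had 10.2, 9.14, 11.8 and 11.4 CPM, and Erbb4 was the lowest receptor gene at 2.07, 1.67, 5.74 and 3.46 CPM. Erbb3 exceeded Egfr 3.84-fold and Erbb4 11.2-fold on the log2(CPM + 1) scale, each in 4 of 4 libraries (exact sign-flip p = 0.13 for each). That scale understates a ratio to a gene as low as Erbb4. Erbb2 and Egfr were not ordered alike in all libraries (ratios of 0.883, 1.12, 1.48 and 2.21).

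Sox10 (ENSMUSG00000033006.9, chromosome 15, 79154908 to 79165240, minus strand), the high-mobility-group factor of the Schwann lineage, varied most. It had 50.6, 66.5, 13.6 and 13.4 CPM, a mean of 36.0 ± 26.8 CPM (SD, n = 4). Replicates 1 and 2 were 4.33-fold higher than replicates 3 and 4, and the 4 ratios between single libraries ran from 3.71 to 4.95. Its mean therefore describes no library, and its place in the order depended on the pair. It was the highest of the 7 genes in replicates 1 and 2. In replicates 3 and 4 only Egr2 lay below it.

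Egr2 (ENSMUSG00000037868.15, chromosome 10, 67535475 to 67542188, plus strand), the zinc-finger activator of myelin genes, was the lowest of the 7 by mean. It had 16.6, 14.0, 9.68 and 8.998 CPM, a mean of 12.3 ± 3.61 CPM (SD, n = 4). Like Sox10 it was higher in replicates 1 and 2, by 1.64-fold. Sox10 exceeded Egr2 in 4 of 4 libraries, with ratios of 3.05, 4.74, 1.41 and 1.49 (exact sign-flip p = 0.13).

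Pou3f1 (ENSMUSG00000090125.3, chromosome 4, 124656807 to 124660655, plus strand), the POU factor of promyelinating Schwann cells, had 18.2, 16.6, 24.03 and 20.9 CPM. Its mean was 19.9 ± 3.25 CPM (SD, n = 4), and its coefficient of variation, 16.3%, was the smallest of the 7 genes, against 74.3% for Sox10. Pou3f2 (Brn2), a related POU factor with overlapping roles in Schwann cells, had 18.5, 17.4, 30.1 and 31.6 CPM. Pou3f1 was below Pou3f2 in 4 of 4 libraries, but by ratios of 0.984 and 0.955 in replicates 1 and 2, which is within counting error. The noncoding gene Gm2164, which shares 330 exonic bases with Pou3f1 on the opposite strand, was listed at 0 in every library.

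Nab2 (ENSMUSG00000025402.12, chromosome 10, 127660918 to 127668568, minus strand), the corepressor that binds Egr proteins, had 15.5, 18.2, 43.8 and 34.6 CPM. Its mean was 28.0 ± 13.5 CPM (SD, n = 4), and replicates 3 and 4 were 2.33-fold higher than replicates 1 and 2. Nab2 and its partner Egr2 thus lay at like levels in replicates 1 and 2, with ratios of Nab2 to Egr2 of 0.935 and 1.29, and far apart in replicates 3 and 4, with ratios of 4.52 and 3.85. The mean log2 difference was 1.04 with an SD of 1.07 (exact sign-flip p = 0.25, higher in 3 of 4 libraries), so the spread is as large as the difference. The paralogue Nab1 had 52.6, 48.6, 61.3 and 43.7 CPM and lay above Nab2 in 4 of 4 libraries. The ratio of Nab2 to Nab1 was 0.295 and 0.374 in replicates 1 and 2 and 0.713 and 0.791 in replicates 3 and 4.

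Egr1, which shares the DNA-binding motif of Egr2 and also binds Nab2, had 64.4, 63.6, 88.8 and 75.9 CPM and exceeded Egr2 in every library. The ratio of Egr2 to Egr1 was 0.257 and 0.221 in replicates 1 and 2 and 0.109 and 0.119 in replicates 3 and 4. Egr1 is an activity-induced gene of neurons as well, and bulk tissue does not part the sources.

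Promoters of the 2 members that were at least 2-fold higher in replicates 3 and 4 and have an entry in the RefSeq table (Nab2 and Erbb2), and of Egr2, the partner of Nab2 that parted in the opposite direction, are shown to set their start regions side by side. The sequences are from RefSeq (GRCm38.p6), 250 bases before to 50 bases after a start site, on the strand of the gene. Capitals mark matches to GNGTGGGNG, which contains the Egr motif GCGTGGGCG as a special case, and to the POU octamer ATGCAAAT, searched on both strands. Nab2 lies at chr10:127666654-127666953 (minus strand), Erbb2 at chr11:98412234-98412533 (plus strand), and the Egr2 window at chr10:67537619-67537918 (plus strand) is 1 of 5 that the table gives for this gene, shown because its start site is also that of an annotated GENCODE transcript.
Nab2: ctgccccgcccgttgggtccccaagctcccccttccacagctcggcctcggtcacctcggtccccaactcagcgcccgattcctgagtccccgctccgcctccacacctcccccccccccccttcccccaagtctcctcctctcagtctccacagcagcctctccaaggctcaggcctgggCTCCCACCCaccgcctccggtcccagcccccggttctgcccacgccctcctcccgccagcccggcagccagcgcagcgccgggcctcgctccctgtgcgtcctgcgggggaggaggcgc
Erbb2: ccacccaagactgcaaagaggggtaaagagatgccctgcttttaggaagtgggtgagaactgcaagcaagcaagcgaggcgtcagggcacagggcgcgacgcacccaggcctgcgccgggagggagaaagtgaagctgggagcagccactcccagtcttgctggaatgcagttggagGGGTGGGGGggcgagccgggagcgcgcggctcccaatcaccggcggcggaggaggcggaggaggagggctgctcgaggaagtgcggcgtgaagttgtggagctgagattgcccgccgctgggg
Egr2: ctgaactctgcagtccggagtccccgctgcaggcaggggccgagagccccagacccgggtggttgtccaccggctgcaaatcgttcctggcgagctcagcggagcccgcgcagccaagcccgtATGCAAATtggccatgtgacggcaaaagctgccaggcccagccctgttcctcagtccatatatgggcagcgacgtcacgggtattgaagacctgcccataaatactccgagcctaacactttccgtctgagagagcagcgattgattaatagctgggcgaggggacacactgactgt

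Nab2 held 1 match to GNGTGGGNG, at position -69 from the start site on the opposite strand, and Erbb2 held 1 match, at position -73. Of 32851 promoters in the table, 14.3% held this motif. Egr2 held 1 octamer, at position -127, and 1.74% of all promoters held one. Of the other Egr2 windows, the most upstream held 1 match to GNGTGGGNG, at position 30 after its own start site. None of the 3 windows held GCGTGGGCG or the Sox motif ACAAAG, which were in 0.612% and 18.7% of all promoters. A match of letters is a description of the sequence and not a site of binding. Nrg1, Erbb3, Sox10 and Pou3f1 had no entry.

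Over the 21 pairs that the 7 genes form, 11 had the same direction in 4 of 4 libraries, and 7 had opposite directions in replicates 1 and 2 and in replicates 3 and 4. Sox10 took part in 5 of the latter, since it lay above Erbb3, Nab2, Nrg1, Pou3f1 and Erbb2 in replicates 1 and 2 and below all of them in replicates 3 and 4. By mean CPM the order was Erbb3, Sox10, Nab2, Nrg1, Pou3f1, Erbb2 and Egr2. Of the 6 neighbours in that order, only Nrg1 over Pou3f1 had 1 direction in 4 of 4 libraries (mean log2 difference 0.45, SD 0.17, exact sign-flip p = 0.13). Erbb3 over Sox10 (log2 difference 0.60, SD 1.69) and Erbb2 over Egr2 (0.24, SD 1.03) had differences smaller than their spread. So did Sox10 over Nab2 (0.14, SD 1.85), Nab2 over Nrg1 (-0.09, SD 0.47) and Pou3f1 over Erbb2 (0.44, SD 0.51). Per kilobase the order was Sox10 at 11.8, Nab2 at 9.52, Erbb3 at 7.59, Pou3f1 at 5.18, Egr2 at 3.63, Erbb2 at 2.97 and Nrg1 at 2.69 CPM per kilobase. Nrg1 drops to the end there because its annotated exons, 10351 bases, are the longest of the 7.

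**Figure D2:**
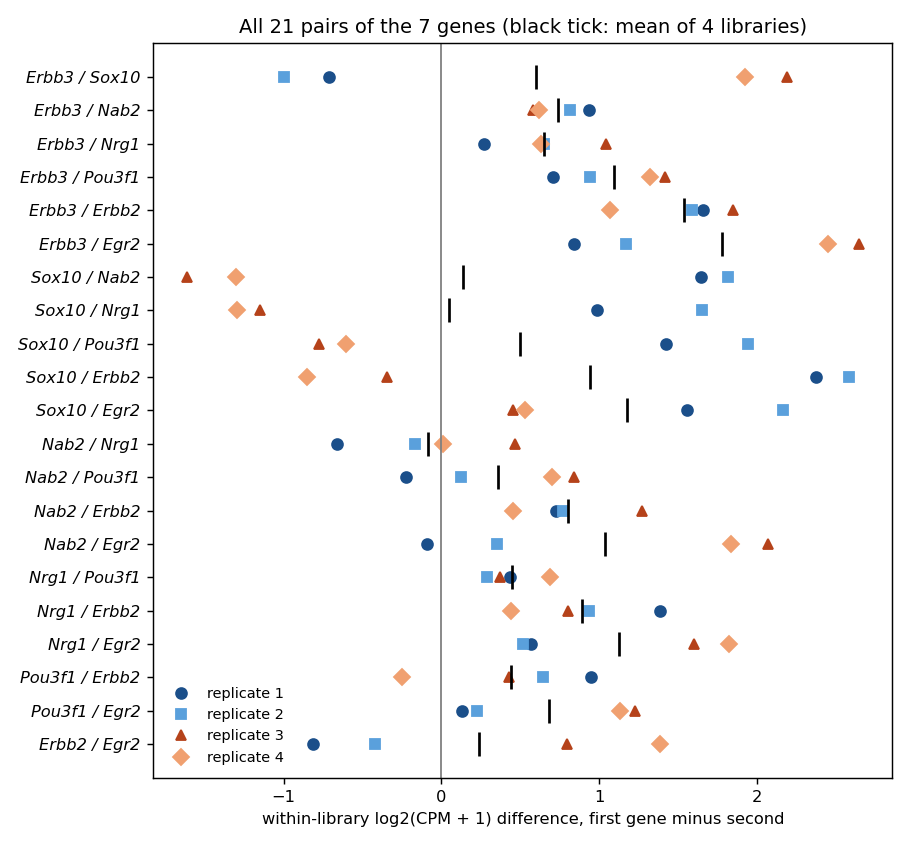
Within-library log2(CPM + 1) differences for the 21 pairs of the 7 genes, first gene minus second (points by replicate, black tick the mean of 4 libraries). Pairs with Sox10 spread on both sides of 0, except Sox10 over Egr2, while Erbb3 over Erbb2 stays between ratios of 2.14 and 3.74.

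In all 7 genes the levels of replicates 1 and 2 did not overlap those of replicates 3 and 4. This is common in the table, since 84.9% of 8580 genes averaging at least 10 CPM parted in this way. Replicates 1 and 2 were the higher pair for 2 members (50.4% of all such genes) and the lower pair for 5 (34.5%). With a difference of at least 2-fold, 3 of the 7 remained, against 33.2% of all genes. Sox10 was the 1 higher in replicates 1 and 2 (23.7% of all genes), and Erbb2 and Nab2 were the 2 higher in replicates 3 and 4 (9.56% of all genes). At 1.5-fold the count was 5 of 7, against 56.2%. With 7 genes, nothing about the members as a set is read from these counts. Their directions differed, with the log2 difference of replicates 1 and 2 over replicates 3 and 4 at 2.02 for Sox10, 0.65 for Egr2, -0.35 for Pou3f1 and -0.52 for Nrg1. It was -0.89 for Erbb3, -1.05 for Erbb2 and -1.17 for Nab2. The median over the 8580 genes was 0.19, and relative to it Sox10 stood at 1.83 and Egr2 at 0.46. When values were rescaled without the 3 ribosomal RNA entries, or without mitochondrially encoded genes, all 7 kept these directions. Without the ribosomal RNA entries, Erbb3 (-1.03) also reached 2-fold.

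The difference between the pairs moved with gene length across the table (Spearman rho -0.38 over 8571 genes, as a description). Its median was 0.88 in the shortest of 5 equal classes by exonic length and -0.30 in the longest class. Sox10, Egr2, Pou3f1 and Nab2 have exonic lengths of 3051, 3398, 3849 and 2941 bases and fall in the same class, with a median of 0.45. Sox10 exceeded 93.4% of the genes of that class, and Nab2 exceeded 4.03% of them, so these regulators of like length lay near its opposite ends. Egr2 exceeded 57.4% and Pou3f1 19.4% of the same genes. Erbb2, at 5210 bases, exceeded 6.47% of its class, Erbb3, at 6016 bases, 12.3%, and Nrg1 39.0%. The GC content of the longest transcript was also like for Sox10 (61.8%), Pou3f1 (63.9%) and Nab2 (60.1%), of which Sox10 was higher and the other two lower in replicates 1 and 2. What part length or base composition has in the values was not tested.

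**Figure D3:**
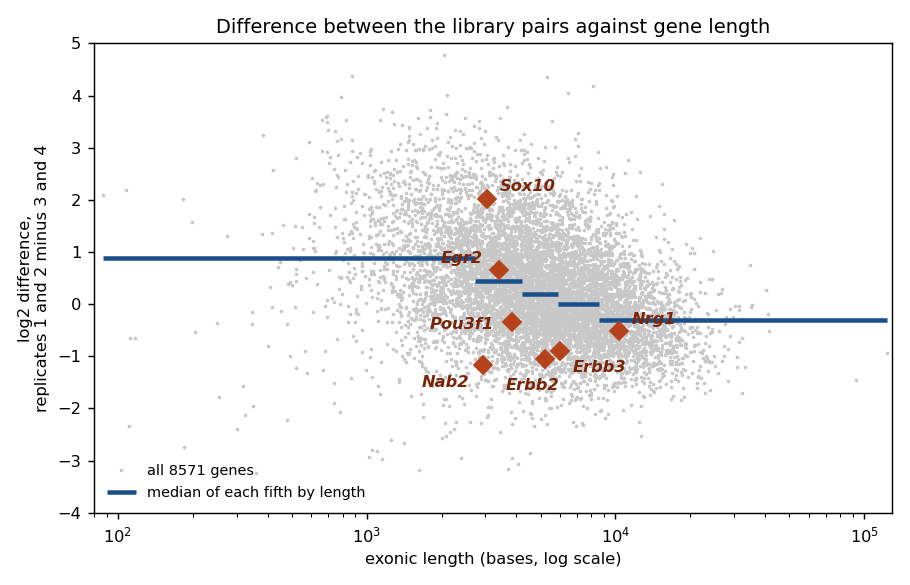
Log2(CPM + 1) difference between the mean of replicates 1 and 2 and the mean of replicates 3 and 4 against exonic length (log axis), for 8571 genes averaging at least 10 CPM (grey, 6 of them outside the plotted range), with the median of each of 5 length classes (blue) and the 7 genes (red). Sox10 at 2.02 and Nab2 at -1.17 have nearly the same length and lie on opposite sides of the median of their class.

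Both members that were at least 2-fold higher in replicates 3 and 4 end against a gene on the other strand, in the part of the transcript that a 3′ kit reads. The use of strand in counting is not given in the sources used here. Without strand, reads that lie within the shared bases cannot be assigned to 1 of the 2 genes. The last 9 exonic bases of Erbb2 (chromosome 11, 98437708 to 98437716) are shared with Mien1, a small gene next to it. Mien1 had 25.2, 22.3, 5.92 and 5.95 CPM, 4.004-fold higher in replicates 1 and 2 than in replicates 3 and 4, opposite in direction to Erbb2. The sum of both genes was 34.2, 32.5, 23.5 and 31.0 CPM. Its log2 difference between the pairs was 0.30, against -1.05 for Erbb2 alone and 1.83 for Mien1 alone. Opposite differences partly cancel in a sum by arithmetic, whether or not reads were exchanged. Nab2 shares 40 exonic bases (chromosome 10, 127660918 to 127660957) with Stat6, the transcription factor of interleukin-4 signalling. Stat6 had 13.6, 13.7, 9.15 and 10.4 CPM, and the sum of Nab2 and Stat6 was 29.1, 31.9, 52.9 and 45.0 CPM. The log2 difference between the library pairs was -1.17 for Nab2, 0.45 for Stat6 and -0.66 for their sum. Whether reads were exchanged between the genes was not tested. Nab2 also shares exonic bases on the opposite strand with Gm16229 (1050 bases, mean 1.87 CPM) and Nemp1 (151 bases, mean 4.16 CPM). The exons of Erbb3, Sox10 and Egr2 overlap no other annotated gene.

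**Figure D4:**
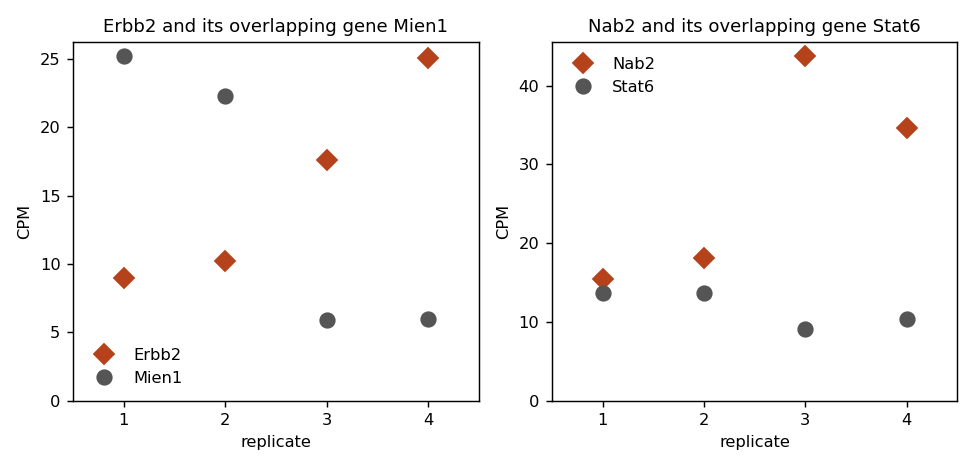
CPM of Erbb2 (red) with Mien1 (grey) and of Nab2 (red) with Stat6 (grey) in replicates 1 to 4. Erbb2 and Mien1 change places between the library pairs, with Erbb2 the lower in replicates 1 and 2 (ratios of 0.355 and 0.460) and the higher in replicates 3 and 4 (2.97 and 4.21).

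Other genes of the pathway were grouped by role, and each count of genes at least 2-fold apart is to be read against the shares over all genes, 23.7% with replicates 1 and 2 the higher pair and 9.56% with replicates 3 and 4 the higher pair. Of 5 protease genes that release neuregulins, all were detected in every library, from Adam10 at a mean of 184 CPM to Bace2 at 6.93 CPM. Bace1, the protease that cuts axonal neuregulin-1, had 37.2, 33.98, 47.9 and 48.2 CPM, and none of the 4 sheddase genes averaging at least 10 CPM parted by 2-fold. Of 8 genes that restrain or traffic ErbB receptors, all were detected, and 2 of the 5 with a mean of at least 10 CPM were at least 2-fold higher in replicates 3 and 4 (9.56% of all genes). These were Errfi1, which encodes the kinase inhibitor Mig6 (11.7, 6.46, 26.2 and 31.3 CPM), and Erbin, which encodes an ErbB2-binding scaffold (36.5, 27.6, 90.4 and 87.5 CPM). Both had the direction of Erbb2 and Erbb3, but the median log2 difference of the 5 was 0.05, against -0.08 for the 4 sheddase genes and 0.19 for all genes. The lowest of the 8 was Lrig3 at 2.73 CPM and the highest Stub1 at 139 CPM.

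All 23 genes of the signalling steps below the receptors were detected, with a median mean of 85.0 CPM. The kinase gene Mapk3 (ERK1) had the highest mean, 3455 CPM, and Nfatc4 the lowest, 6.61 CPM. Of 21 with a mean of at least 10 CPM, 3 were at least 2-fold higher in replicates 1 and 2 and 1 in replicates 3 and 4, both smaller shares than the 23.7% and 9.56% of all genes. Their median log2 difference was 0.34. The genes of the ERK cascade did not move as one, since the kinase genes Map2k1 and Map2k2 were among the 3 and Mapk3 was the 1. Mapk3 had 2036, 2377, 4666 and 4741 CPM.

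All 15 transcription factors and cofactors that promote myelination were detected and had means of at least 10 CPM, from Hdac1 at 10.1 CPM to Zeb2, a repressor of inhibitors of myelination, at 203 CPM. Besides Sox10, the lipid regulator Srebf1 (26.4, 19.1, 5.38 and 8.86 CPM) was at least 2-fold higher in replicates 1 and 2. Besides Nab2, Tead1, the DNA-binding partner of Yap and Taz, was higher in replicates 3 and 4 (45.1, 40.8, 107 and 125 CPM). The median log2 difference of the 15 was 0.39. Of 18 genes of immature, repair or non-myelinating Schwann cells, 14 were detected in every library. Of the 12 with a mean of at least 10 CPM, 3 (Id2, Jun and L1cam) were at least 2-fold higher in replicates 1 and 2, a share near the 23.7% of all genes, and none in replicates 3 and 4. Their median log2 difference was 0.70. Id2, an inhibitor of basic helix-loop-helix factors, had 79.5, 80.1, 7.71 and 7.20 CPM, a wider split than that of Sox10. Sox2, which holds Schwann cells in an immature state, had 39.3, 34.6, 54.9 and 47.6 CPM, opposite to Sox10, and the ratio of Sox10 to Sox2 was 1.29, 1.92, 0.248 and 0.282. Gdnf was the lowest of the list, at 0 in replicates 3 and 4, and Ncam1 the highest at 353 CPM.

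Of 12 genes for receptors and adhesion proteins between axon and Schwann cell, all were detected, with a median log2 difference of -0.16. Adgrg6 (Gpr126), the receptor whose cAMP signal leads to Pou3f1 and Egr2 in Schwann cells, had 62.0, 64.6, 109 and 96.5 CPM. It was lower in replicates 1 and 2 than in replicates 3 and 4, as was Pou3f1, whereas Egr2 was higher in replicates 1 and 2. At least 2-fold differences were found for Prnp and the glial receptor Gpr37l1 (51.2, 55.4, 14.7 and 10.1 CPM), both higher in replicates 1 and 2, and for Adgrb3, higher in replicates 3 and 4. Lgi4 had the lowest mean, 12.4 CPM, and Prnp the highest, 531 CPM.

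The 17 myelin and Schwann cell genes listed as targets of Sox10 or Egr2 were all detected, with a median mean of 194 CPM and the lowest mean, 7.04 CPM, for the ligand gene Dhh. Of 16 with a mean of at least 10 CPM, 5 were at least 2-fold higher in replicates 1 and 2 (Mbp, Pmp22, Gjb1, Pllp and Cnp), against 23.7% of all genes, and 1 in replicates 3 and 4, against 9.56%. The median log2 difference of these 16 was 0.70, against 0.19 for all genes. Gjb1, the gap junction gene, had 45.6, 58.6, 14.7 and 11.4 CPM, with the same split as Sox10.

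**Figure D5:**
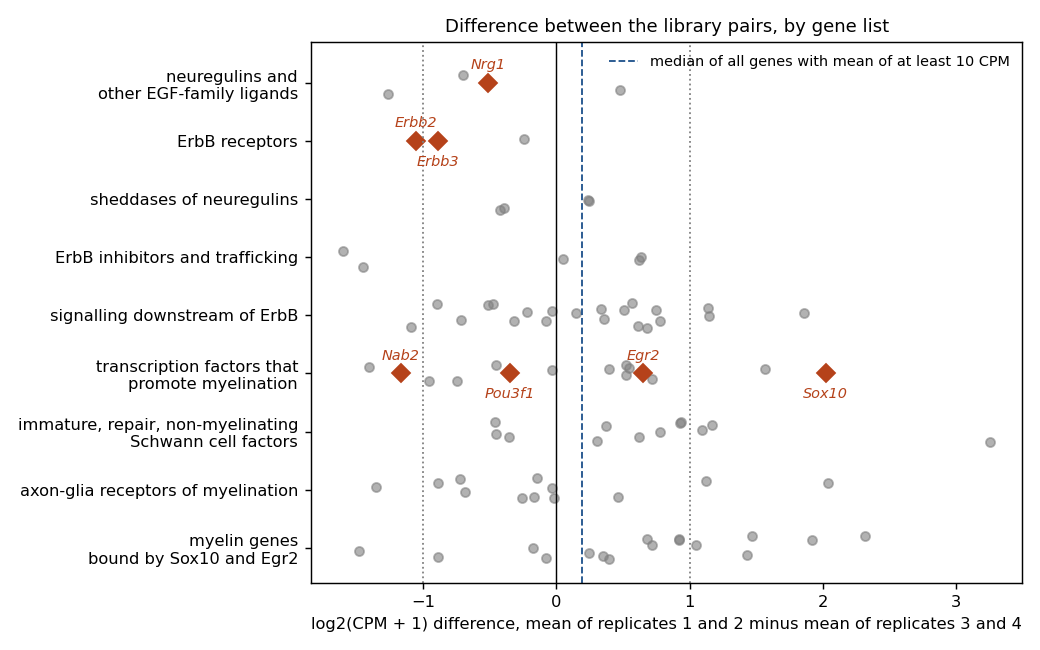
Log2(CPM + 1) difference between the mean of replicates 1 and 2 and the mean of replicates 3 and 4 for genes averaging at least 10 CPM in 9 lists (grey points) and for the 7 genes (red diamonds, named), with the median of all 8580 genes (dashed line) and the bounds of a 2-fold difference (dotted lines). Sox10 and Egr2 lie on the positive side, as do most myelin genes and the median of all genes. Nrg1, Erbb2, Erbb3, Pou3f1 and Nab2 lie on the negative side.

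Like Sox10 and Egr2, the marker sums of 4 glial lists and of fibroblasts were higher in replicates 1 and 2 than in replicates 3 and 4, without overlap. The 7 markers of myelinating Schwann cells summed to 27946 and 28985 CPM in replicates 1 and 2 and to 15321 and 15707 CPM in replicates 3 and 4. The 5 satellite glia markers, all detected in every library, summed to 1157 and 1192 CPM in replicates 1 and 2 and to 567 and 630 CPM in replicates 3 and 4. The 4 markers shared by the Schwann lineage and satellite glia, also all detected, differed less, at 2637 and 2809 CPM in replicates 1 and 2 and at 2210 and 2394 CPM in replicates 3 and 4. The 4 markers of non-myelinating Schwann cells, all detected, summed to 694 and 801 CPM in replicates 1 and 2 and to 631 and 646 CPM in replicates 3 and 4. The 4 fibroblast markers, all detected, summed to 1576 and 1718 CPM in replicates 1 and 2 and to 1127 and 1296 CPM in replicates 3 and 4. The 6 neuronal markers summed to means of 10189 CPM in replicates 1 and 2 and 10200 CPM in replicates 3 and 4. Single neuronal markers went both ways, since Prph had 883, 993, 1894 and 1565 CPM and Snap25 had 883, 716, 517 and 481 CPM. So did single genes of the glial lists: Fabp7 had 206, 138, 33.5 and 33.1 CPM, and Cadm2 had 47.4, 39.8, 92.0 and 82.8 CPM. The part of these markers in the levels of Sox10, Egr2 and Erbb3 was not tested. Of the other cells that use Sox10, oligodendrocytes were represented by 1 of 5 markers at 1 CPM in every library (Mobp), with Olig2 at 0 in 3 of 4 libraries and a marker sum of 4.90 to 6.64 CPM. Melanocytes were represented by 1 of 4 markers (Mitf), with Tyr at 0 to 0.415 CPM and a marker sum of 13.3 to 20.6 CPM.

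The profile of a gene over the 4 libraries was compared with that of every gene with a mean of at least 10 CPM, as the distance between log2 values centred on their mean. With 4 libraries that fall into pairs, many genes share each profile, and a small distance says no more than that. The nearest to Sox10 were Shcbp1 (distance 0.08) and Lsm6 (0.08), and to Egr2 Ctnna1 (0.01) and Cntn4 (0.02). Nearest to Nrg1 were Gpm6b and Arid2 (0.03 each), to Erbb3 Atp2a1 and Rcbtb1 (0.02 each), and to Erbb2 Zc3h6 and Dusp16 (0.09 each). For Pou3f1 they were Add3 (0.03) and Rnf214 (0.04), and for Nab2 Golga7b (0.02) and Gm26699 (0.05). Among the 7 genes themselves, Erbb3 and Nab2 were closest (0.29), followed by Nrg1 and Pou3f1 (0.30), and Sox10 and Nab2 were farthest apart (3.20). Erbb2 lay about as near to Erbb3 (0.58) as to Nab2 (0.59). Erbb3 in turn was nearer to Nab2, Nrg1 (0.55) and Pou3f1 (0.57) than to Erbb2.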

How the data were processed

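Per the labels' protocols, ribosomal RNA was depleted from TRIzol-extracted RNA and a QuantSeq kit of Lexogen, specific for 3′ ends, made the libraries. The submitters' processing notes name the builds GRCm38.p4 and mm10 and the tools Cufflinks (2.2.1), Bowtie2 (2.2.9), TopHat2 (2.1.1) and FastQC (0.11.5). Neither annotation nor strand use was given in the sources used here. Values are in TPM per the file headers, yet in each library at least 98.272% of the deposited values above 0 were within 0.05 of whole multiples of a single step. The deposited values were therefore taken as CPM, read counts that the authors had scaled to a common sum, and no count model was used. Intervals cover counting error only.

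Replicate numbers tied columns to samples. Positions, exonic lengths and overlaps came from GENCODE M21 (GRCm38), in which 48052 identifiers (99.2%) matched. Erbin was found under an older symbol, and promoter entries existed for 3 members. Differences between 2 genes are of log2(CPM + 1) within a library, tested by an exact two-sided sign-flip permutation test over 4 libraries. The 21 member pairs and 11 further pairs of related genes were computed, and no p was adjusted, since none can fall below 0.125. Each p-value tests a mean within-library difference against 0, and the spread between libraries behind it may be technical. A gene was called apart where its library pairs did not overlap and their means differed at least 2-fold, at a mean of at least 10 CPM. The steps were tested on simulated data. The members, the 9 lists and the rules were chosen with earlier results of these data known. Named genes are the members, each list's highest and lowest genes and up to 3 more, the 2 nearest profiles of each member and genes with overlapping exons. Further list genes were picked with their values in view, and a few list genes are not reported here. Alternatives were leaving out each replicate, rescaling without ribosomal RNA or mitochondrial entries, pseudocount, exonic length, detection level, minimum mean and fold. Python 3.11.15, numpy 2.4.6, pandas 2.3.3, scipy 1.17.1 and matplotlib 3.10.9 were used.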

Additional observations from a re-analysis of the deposited data

How the results depend on the processing

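Detection of all 7 genes at 1 CPM held at 5 CPM as well. At 0.5 CPM, without each replicate and under both rescalings, which lower no value of these genes, it could not fail. The number of gene pairs with 1 direction in every library, 11 of 21, was 13 per kilobase. Both rescalings and a pseudocount of 0.1 cannot change which gene is higher within a library, so the 11 found there was fixed in advance. Leaving out 1 replicate can only keep or raise the count, and gave 11 to 13. Erbb3 over Erbb2 stayed at a log2 difference of 1.12 to 1.70 in all alternatives. The members apart at 2-fold, 3, were 3 without mitochondrial entries or at a minimum mean of 1 CPM, 4 without the ribosomal RNA entries (Erbb3 joined), 5 at 1.5-fold and 7 with no minimum fold, as the looser rule allows. Without the ribosomal RNA entries the median difference of all genes between the pairs was 0.05 in place of 0.19.

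Per kilobase of exonic length, the mean log2 difference changed sign for 4 neighbours. These were Erbb3 over Sox10 (-0.34), Nab2 over Nrg1 (1.42), Nrg1 over Pou3f1 (-0.75) and Erbb2 over Egr2 (-0.26). By mean level, Nab2 lay above Nrg1 on both scales. Sox10 over Nab2 turned to -0.37 without replicate 1 and -0.42 without replicate 2, with a range of -0.42 to 0.72 over the replicates left out. Nab2 over Nrg1 turned to 0.10 without replicate 1 (range -0.27 to 0.10), and Erbb2 over Egr2 to -0.15 without replicate 4 (range -0.15 to 0.59). Fewer libraries of 1 pair then enter the mean. No paired analysis was possible because all libraries belong to 1 group. Among the values of the 7 genes, Egr2 in replicate 3 had the fewest reads, 54, so depth limits precision most for this value.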
